A study of Mus musculus with 13 samples.

Results

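Sox9-positive cells were selected on their measured counts in mouse liver sections, as cells holding a Sox9 count of 3 or more together with fewer than 3 counts each of Adgre1, a macrophage marker, and Lrat, a stellate cell marker. They were 1939 of 131221 cells, which left 129282 other cells. The rule was meant to mark biliary and progenitor cells. Of the 10 other biliary markers listed for that check, among them Cldn7, Krt19, Krt7, Epcam and Spp1, Cldn7 alone had values in the tables used here, so the label rests on Sox9 and Cldn7, and the cells are called here by their rule.

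Sox9 encodes a transcription factor of the bile duct epithelium, and in rodents it also marks some hepatocytes beside the portal tract and hepatocytes that take on duct features after injury. Bile ducts run in the portal tract beside the portal vein and hepatic artery, at the far side of the lobule from the central vein. Cldn7 encodes claudin 7, a tight junction protein of many simple epithelia, and Yap1 encodes the effector of the Hippo pathway, which is more active in duct cells than in hepatocytes. Hepatocytes fill most of the lobule and divide their metabolic work by position, with glutamine synthesis and much drug oxidation near the central vein, and urea and glucose production near the portal vein.

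The sections came from male C57BL/6 mice, with an age of 2 months on the label, in which 2/3 of the liver had been removed, and were read by Molecular Cartography, an in situ assay of single transcripts with a chosen gene panel. All groups shared strain, sex and diet. They were 0 h (2 sections), 24 h (2), 48 h (2), 72 h (2), 14 days (3), 3 months (1) and 6 months (1), and 0 h is the reference for every later time. The 0 h group is taken here as the time before surgery, and the later groups as times after it. Mice sampled at 3 and 6 months would be older than those at 0 h if 2 months was the age at surgery, and age and time then cannot be told apart. Nothing in the labels says whether sections of a time came from separate mice, so p-values measure the spread between sections, which may be technical.

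A section held 4586 to 15817 cells and 1678015 to 9619206 transcript counts in cells of 100 genes. The median Sox9-positive cell held 121 to 645 counts, by section, and the median other cell 235 to 632 counts. At 14 days the medians of Sox9-positive cells were 644, 645 and 438 counts, against 170 and 148 counts at 0 h. Those of the other cells were 632, 626 and 470 counts, against 315 and 317 counts at 0 h. The 6 months section had the lowest medians of both, at 121 and 235 counts. The count of 3 in the rule was the same in all sections. The 24 h sections carried 1 slide position and no number and were joined to 1 library, which gave 12 libraries. Across sections 37 cell names occurred more than once, and 0 of them had the same counts.

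Sox9-positive cells made up a larger share of cells in the sections after surgery than at 0 h. They were 1.41% (91 cells) and 1.50% (69 cells) at 24 h, 1.11% (107 cells) and 0.594% (57 cells) at 48 h, and 1.65% (79 cells) and 1.39% (158 cells) at 72 h, against 0.573% (64 cells) and 0.457% (54 cells) at 0 h. At 14 days they were 2.47% (284 cells), 2.67% (417 cells) and 2.01% (318 cells), the 3 highest shares of all sections. The 3 months section was at 0.604% (49 cells) and the 6 months section at 1.79% (192 cells). The exact 95% binomial interval of the 48 h section with fewer such cells ran over 0.450 to 0.769%, and that of the 3 months section over 0.447 to 0.797%; both took in the larger 0 h share. These intervals cover counting error only. The closeness of 3 months to 0 h came with the exclusion of cells rich in Lrat: 114 of its 8119 cells (1.40%) had a Sox9 count of 3 or more before the cuts on Adgre1 and Lrat, and 65 of the 114 were left out for Lrat. The same share before these cuts was 0.618% and 0.457% at 0 h.

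**Figure D1:**
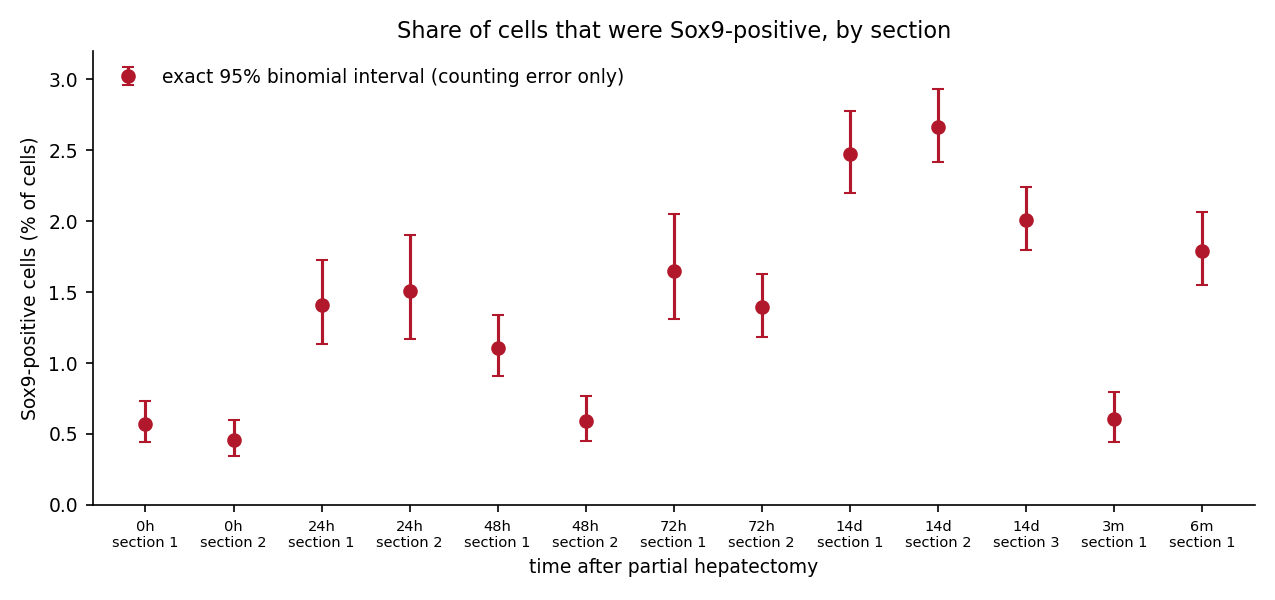
Percent of cells that were Sox9-positive in each of the 13 sections, in order of time after surgery, with exact 95% binomial intervals that cover counting error only. The 14 days sections lie highest at 2.01 to 2.67%, and 1 section at 48 h and the section at 3 months lie close to the 0 h sections; at 3 months the share was 1.40% before cells rich in Adgre1 or Lrat were left out.

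The 10 later libraries averaged 1.57%, against 0.515% at 0 h, a difference of 1.06 percentage points (two-sided exact permutation p = 0.0303, the smallest p that 10 against 2 libraries can give). The groups did not overlap. Every later section of slides 1 and 2 also lay above the 0 h section of its own slide, while all 3 sections of 14 days lay on slide 3, which held no 0 h section, so slide and time cannot be told apart there. When each cell was thinned to 100 counts the difference was 0.397 percentage points with an exact permutation p = 0.0909 (mean 0.607% after surgery and 0.210% at 0 h). Thinning left out 137 to 1827 cells a section that held fewer counts, 4 to 66 of them Sox9-positive. With a Sox9 count of at least 5 the p was also 0.0909, and with Adgre1 and Lrat both at 0 it was 0.121. The part that counts per cell had in the rise was not tested beyond these values.

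The choice of 3 counts divided a continuous range. Among cells with Adgre1 and Lrat below 3, 725 cells had a Sox9 count of 3 and lay just inside the rule, and 2403 had a count of 2 and lay just outside. Cldn7 was found in 15.7% of the cells with 3 Sox9 counts and in 6.37% of those with 2. Hepatocyte genes (a list of 25) made up 76.3% of the median cell's counts at 3 Sox9 counts and 78.8% at 2. At 10 or more Sox9 counts (337 cells) Cldn7 was found in 85.8% of cells and the hepatocyte genes made up 39.4% of the counts of the median cell. Cells with 5 to 9 counts (543 cells) lay between, at 54.5% and 56.3%. These classes are pooled over sections, share the rule's own measure and carry no test. The 14 days sections, all on slide 3, gave 66, 89 and 69 of the 337 cells with 10 or more counts. In that class Cldn7 was found in 1 of 4 cells at 0 h section 2 and in 11 of 22 at 6 months. It was found in 77.8 to 100% of them in the other sections that held such cells. The hepatocyte share of the median cell in that class was 13.05 to 54.9% by section. Cells just above the threshold held a larger share of hepatocyte transcripts and less Cldn7 than cells high in Sox9. They also held more counts in all. The median cell had 603 counts at 2 Sox9 counts, 567 at 3, 349.5 at 4, 244 at 5 to 9 and 299 at 10 or more. The part that total counts had in these differences was not tested.

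**Figure D2:**
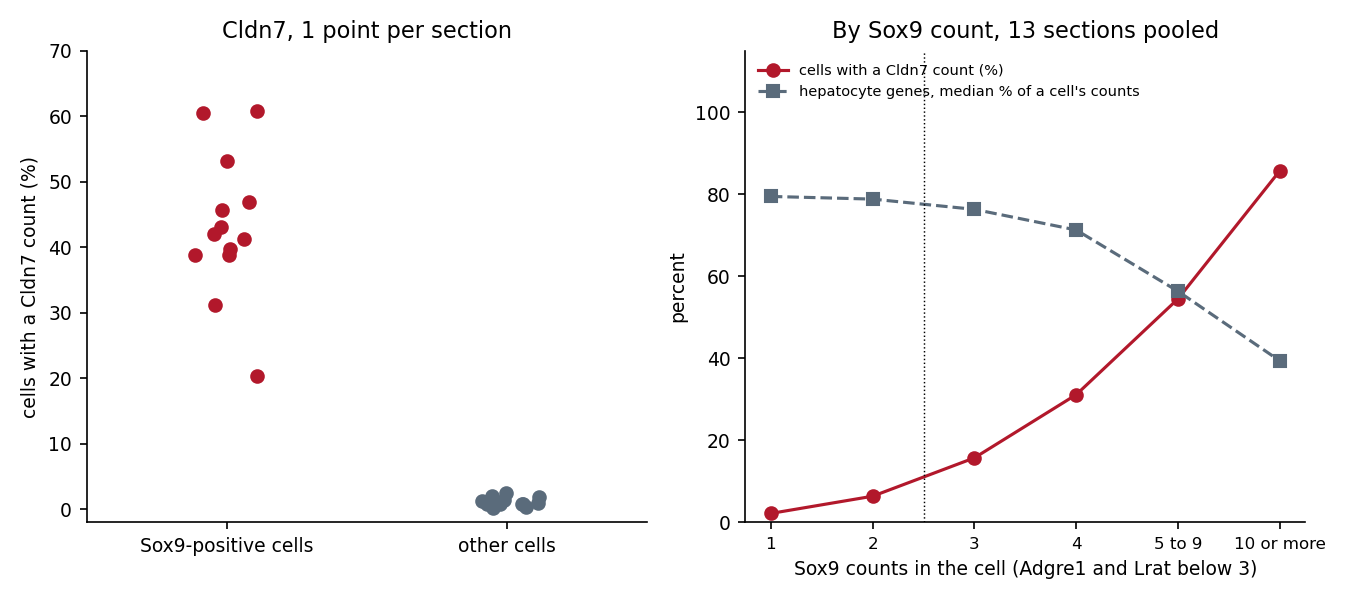
Left, percent of cells with at least 1 Cldn7 count in Sox9-positive and in other cells, 1 point per section. Sox9-positive cells lie at 20.4 to 60.9% and other cells at 0.170 to 2.55%. Right, percent of cells with Cldn7 and median percent of a cell's counts in 25 hepatocyte genes, by Sox9 count with all sections pooled; the dotted line is the threshold of the rule.

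Cldn7 had the largest fold change between Sox9-positive and other cells among the genes tested. It was found in 20.4 to 60.9% of Sox9-positive cells by section (median 42.1%), against 0.170 to 2.55% of other cells. In a section it was found in 0 to 4.52% of cells with 3 or more counts of Adgre1, macrophages that should lack it, with a median depth of 221 to 513 counts, and in 0.221 to 2.42% of cells with 3 or more counts of the endothelial gene Pecam1. Thinned to 100 counts, Cldn7 was found in 12.5 to 48.1% of Sox9-positive cells and in 0.0749 to 0.731% of other cells. The level of Cldn7 over libraries was 1312 to 6361 CPM (median 2910) in Sox9-positive cells, against 5.52 to 68.4 CPM (median 34.3) in other cells. CPM is counts per 1000000 counts of the same cells without Sox9, Adgre1 and Lrat, which chose the cells and were left out of all tests. The ranges were far apart, and the log2 fold change was 5.96 ± 0.23 (SE, 12 libraries; edgeR adjusted p = 1.85e-11). Of all Cldn7 counts in cells, the Sox9-positive cells held 25.2 to 62.5% by section.

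Sox9-positive cells with a Cldn7 count held fewer hepatocyte transcripts than those without one. Their median was 120 to 363 counts a cell by section, against 122 to 780 counts in those without Cldn7. Hepatocyte genes made up 14.3 to 68.5% of the median cell with Cldn7, against 48.0 to 79.1% of the median cell without it. In 12 of 13 sections the cell with Cldn7 had the lower share, and the exception was 0 h section 2, at 68.5% against 66.9%. In that section 11 of 54 Sox9-positive cells had Cldn7, the lowest share of any section.

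Yap1 was higher in Sox9-positive cells in all 12 libraries. Its level was 5594 to 8859 CPM (median 7011), against 2567 to 4112 CPM (median 3020) in other cells, so the groups did not overlap. The log2 fold change was 0.51 ± 0.069 (SE; edgeR adjusted p = 1.15e-05) with TMM scaling, which takes most genes as equal, and 1.16 with scaling by total counts. That scaling moved the median of all genes by 0.63, so the size of every difference given below depends on it. By section a Yap1 count was found in 61.5 to 94.7% of Sox9-positive cells and 45.4 to 84.2% of other cells.

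Of 81 genes tested between Sox9-positive and other cells, 55 passed an adjusted p of 0.05 (67.9%), 25 higher (30.9%) and 30 lower (37%). A gene entered the test if 2 or more libraries of Sox9-positive cells held 10 or more counts of it. This filter used Sox9-positive cells alone. A gene scarce in them was not tested and could not be called lower, whatever its level in other cells. The median over all genes tested was -0.25 on the log2 scale. With total-count scaling 42 genes were higher and 15 lower. All genes named by rank in the next paragraphs passed with the same sign under both scalings and whichever library was left out, except that Tbx3 had too few counts for the test without 14 days section 1 or 2.

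Frizzled receptors and Wnt ligands led the rises beside Cldn7. Frizzled proteins are the receptors that bind Wnt ligands at the cell surface, and Lrp5 and Lrp6 are their co-receptors. Of 11 receptor genes tested (of 14 in the panel) 10 were higher in Sox9-positive cells and 0 lower, against 30.9% and 37% of all genes tested. Their median log2 fold change was 0.55, against -0.25 over all genes. The receptor gene that did not pass was Fzd2 (53 counts in Sox9-positive cells, log2 fold change 0.071 ± 0.43). Fzd10, Fzd6 and Lgr5 had too few counts in Sox9-positive cells for the test, so they could not be called lower.

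Fzd3 lay at 145 to 1097 CPM (median 401) in Sox9-positive cells, against 2.26 to 14.0 CPM (median 9.10) in other cells, and its log2 fold change was 4.78 ± 0.36. Fzd9 lay at 0 to 1230 CPM (median 186), against 4.22 to 19.5 CPM, with a log2 fold change of 3.97 ± 0.40 and 1 of 12 libraries, 48 h section 2, below its other cells at 0 CPM. Fzd1 had no overlap between groups, at 1842 to 4708 CPM in Sox9-positive cells, against 237 to 1028 CPM in other cells, with a log2 fold change of 1.85 ± 0.17. Fzd5 (1.72 ± 0.12) and Fzd7 (0.98 ± 0.15) followed, and the co-receptors had the smallest folds among the receptor genes that passed, with Lrp6 at 0.33 ± 0.065 and Lrp5 at 0.30 ± 0.10. All these adjusted p-values from edgeR were below 0.05, the largest being 0.0167 for Lrp5.

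Of 11 Wnt ligand genes tested (of 19 in the panel) 5 were higher and 1 lower, against 30.9% and 37% of all genes tested. Their median was 0.51, against -0.25 over all genes. The ligand genes not tested had too few counts in Sox9-positive cells and could not be called lower. Wnt7b lay at 70.3 to 1009 CPM (median 298) in Sox9-positive cells, against 1.59 to 11.0 CPM in other cells, a log2 fold change of 5.28 ± 0.31 (edgeR adjusted p = 2.13e-09). Wnt4, which signals through routes that do not all use beta-catenin, lay at 759 to 3615 CPM (median 1696), against 70.1 to 164 CPM, with a log2 fold change of 3.39 ± 0.15. The 2 groups did not overlap for either gene. Wnt7a (2.19 ± 0.35), Wnt5a (2.13 ± 0.16) and Wnt9a (1.98 ± 0.35) were also higher. Wnt1 was lower by the same test (-0.62 ± 0.21, adjusted p = 0.0154) and at -0.0089 with total-count scaling. Wnt2, Wnt9b and Rspo3, signals of endothelial cells around the central vein, had 43, 17 and 16 counts over all Sox9-positive cells, too few for the test. Their highest levels in Sox9-positive cells were 112, 140 and 42.2 CPM, and the median levels in other cells 356, 193 and 175 CPM.

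Ccnd1, the cyclin that carries cells through G1, stood out by its amount as well as its fold. It lay at 17889 to 107600 CPM (median 41079) in Sox9-positive cells, against 1125 to 11573 CPM (median 4838) in other cells. Its log2 fold change was 2.49 ± 0.26 (edgeR adjusted p = 7.34e-07), and every library of Sox9-positive cells lay above every library of other cells. Cidea, a lipid droplet protein, had 84 counts in all in Sox9-positive cells and a log2 fold change of 2.51 ± 0.35. Of the other cell cycle genes Ccne1, the cyclin of S phase entry, did not pass (-0.14 ± 0.24), and Ccna1 and Ccnb1 had 7 and 3 counts. Igfbp2, a secreted binding protein of insulin-like growth factors that is made in hepatocytes, was lower (-1.24 ± 0.13). It had been listed with Yap1 among 7 Notch, Hippo and progenitor genes. Of these 2 were tested, 1 higher (Yap1) and 1 lower (Igfbp2), so the list gave no single direction.

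**Figure D3:**
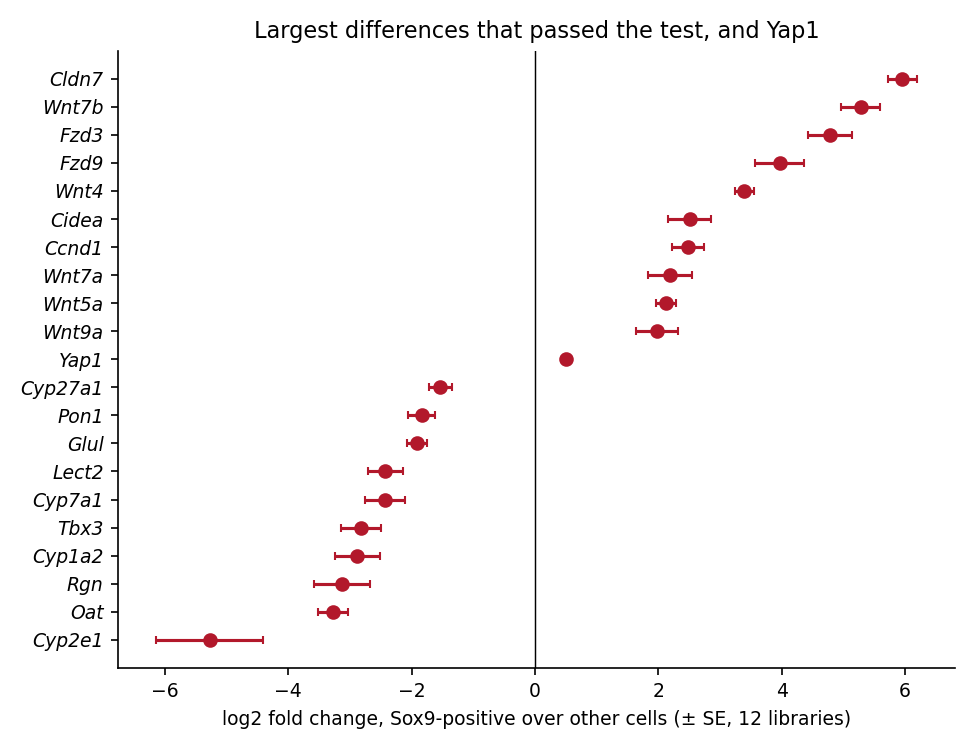
Log2 fold change of Sox9-positive over other cells with its standard error over 12 libraries, for Yap1 and the 10 genes that rose most and the 10 that fell most among those that passed, with TMM scaling. Cldn7 lies at 5.96 at the top and Cyp2e1 at -5.28 at the bottom.

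Hepatocyte genes were present in Sox9-positive cells in smaller shares than in the other cells. The 25 hepatocyte genes made up 29.0 to 73.0% of the counts of the median Sox9-positive cell, against 70.2 to 87.7% of the median other cell, and were lower within 13 of 13 sections. Of the 25 genes 18 were lower and 0 higher in the fit, against 37% lower and 30.9% higher of all genes tested. Their median log2 fold change was -0.72, against -0.25 over all genes. With total-count scaling 12 were lower and 8 higher, against 15 lower and 42 higher of all 81 genes. With a Sox9 count of at least 5, 24 were lower and 0 higher. With the other cells weighted to the total counts of the Sox9-positive cells 16 were lower and 0 higher. Counts over all genes are not given here for the Sox9 count of at least 5 or the weighting. What part of the hepatocyte counts came from neighbouring cells in the same outline was not tested.

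The falls were deepest for genes of hepatocytes around the central vein. Of 9 such genes 8 were tested and all 8 were lower, with a median of -2.62; under total-count scaling 7 of the 8 passed, and Axin2 did not (-0.11). Cyp2e1, which oxidises ethanol and many drugs, lay at 362 to 30698 CPM (median 9864) in Sox9-positive cells, against 80261 to 344650 CPM (median 179460) in other cells, with no overlap and a log2 fold change of -5.28 ± 0.86 (edgeR adjusted p = 0.000126). Oat, a mitochondrial enzyme of ornithine breakdown, lay at 145 to 3067 CPM, against 1826 to 27517 CPM (-3.27 ± 0.24). Glul, glutamine synthetase, lay at 2092 to 4050 CPM, against 3504 to 12543 CPM (-1.92 ± 0.16). Both were lower in 12 of 12 libraries, although the ranges overlapped between libraries. Cyp1a2 (-2.88 ± 0.37), Tbx3, a transcription factor (-2.82 ± 0.32), Lect2, a secreted hepatocyte protein (-2.43 ± 0.28), and Cyp27a1 (-1.54 ± 0.18) were lower in the same way.

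Outside that list the deepest falls were those of Rgn, a calcium binding protein of hepatocytes (-3.12 ± 0.46), Cyp7a1, which opens the main route from cholesterol to bile acids (-2.44 ± 0.33), and Pon1, a lactonase bound to high density lipoprotein (-1.84 ± 0.22). Each was lower in 12 of 12 libraries by the edgeR fit. Genes of hepatocytes around the portal vein showed far smaller differences. Cps1, the first enzyme of the urea cycle, was lower at -0.88 ± 0.11. Ass1, a later enzyme of that cycle, was called lower at -0.29 ± 0.10 (adjusted p = 0.0216). The other 4 did not pass, with Gls2 at 0.021, Hsd17b13 at 0.065, Arg1 at -0.17 and Pck1 at -0.25. Scaling by total counts turned this group, with 5 of 6 higher and Cps1 alone lower (-0.23), and Ass1 then stood at 0.35. Without 0 h section 1, 0 h section 2 or the 24 h section 2 the call of Ass1 was lost, so no direction is drawn for these genes apart from Cps1.

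Markers of other cell types were also counted in the Sox9-positive cells. A Pecam1 count was found in 11.5 to 59.4% of them by section, against 24.3 to 46.1% of other cells. The cut of 3 or more Pecam1 counts was met by 294 of the 1939 Sox9-positive cells, 1.56 to 34.8% by section. It was met by 22363 of the 129282 other cells. Lyz2, a lysozyme of myeloid cells, was found in 19.3 to 55.2%, against 17.9 to 35.0%, and Ptprc, the common leukocyte antigen, in 3.80 to 21.1%, against 6.68 to 21.1%. In the fit none of the 3 passed (Pecam1 -0.46 ± 0.27, Lyz2 -0.35 ± 0.18, Ptprc -0.15 ± 0.23). The signs of these turned to 0.17, 0.30 and 0.49 under total-count scaling. With the other cells weighted to the same total counts all 3 were lower by the test (Pecam1 -0.83, Lyz2 -0.72, Ptprc -0.57). The rule itself keeps cells rich in Adgre1 or Lrat among the other cells. Without cells holding 3 or more counts of Pecam1 or Ptprc, 26 of all genes were higher and 25 lower.

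Sox9-positive cells lay close to tissue with a portal expression pattern. Each section was divided into square tiles of 400 coordinate units, whose length the sources used here do not give, and tiles with at least 50 counts were scored from the other cells alone by 6 portal minus 9 central hepatocyte genes. The top 25% of tiles were called portal-type and the bottom 25% central-type. The median Sox9-positive cell lay 163 to 252 units from the nearest portal-type tile centre, by section, against 412 to 626 units for the median other cell. For scale, the median distance of a cell to its nearest neighbour was 85.4 to 98.7 units. The difference was -311 ± 46.4 units (SD, n = 12 libraries; two-sided exact sign-flip permutation p = 0.000488, the smallest that 12 libraries can give) and was negative in 12 of 12 libraries.

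**Figure D4:**
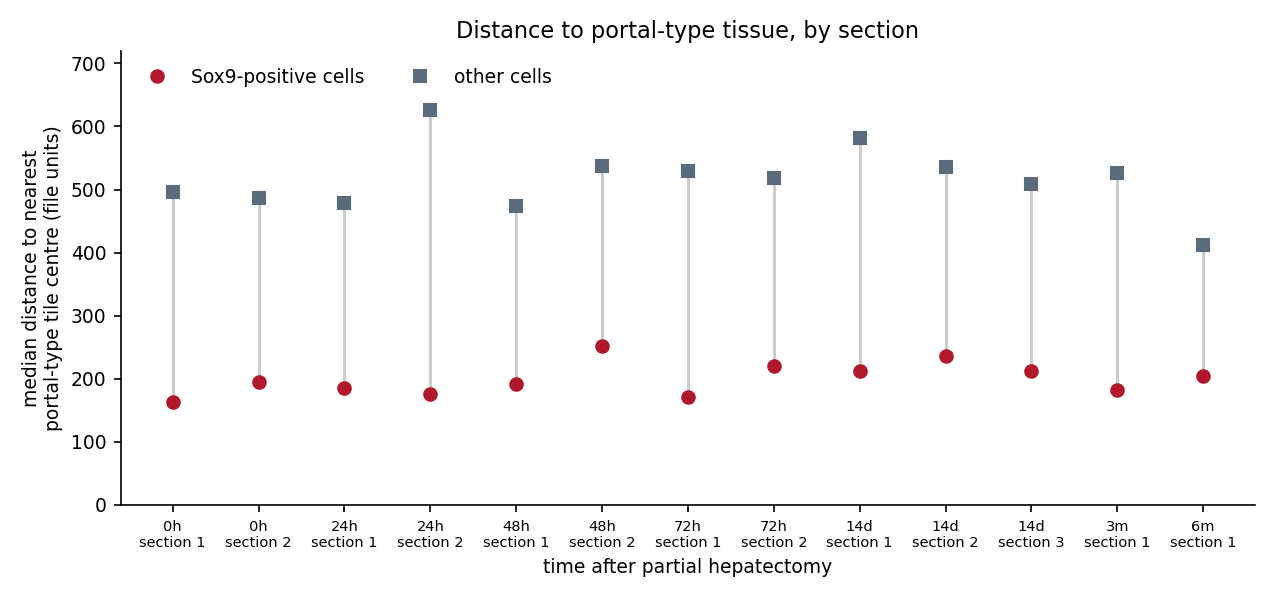
Median distance of Sox9-positive cells and of other cells to the centre of the nearest portal-type tile, in the coordinate units of the files, for each section. Sox9-positive cells lie at 163 to 252 units and other cells at 412 to 626 units in every section.

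Portal-type tiles held 43.9 to 82.8% of the Sox9-positive cells of a section, against 25.6 to 30.4% of the other cells, a mean difference of 36.3 ± 11.6 percentage points (SD, n = 12 libraries; exact sign-flip p = 0.000488). Central-type tiles held 0 to 17.5% of them, against 20.2 to 25.1% of the other cells. The distance to central-type tiles was larger by 651 ± 187 units (SD, n = 12 libraries; exact p = 0.000488). By section the difference in distance to portal-type tiles was -293 and -451 units at 24 h, -283 and -285 at 48 h, -358 and -297 at 72 h, -369, -300 and -297 at 14 days, -344 at 3 months and -209 at 6 months, against -333 and -291 at 0 h. No test of this distance between times was made.

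The 48 h section 2 differed from the others in where its Sox9-positive cells lay. Of its 57 cells 43.9% were in portal-type tiles and 17.5% in central-type tiles, the lowest and the highest share of any section. Of its 26 cells with Cldn7, 34.6% lay in central-type tiles, where the median section had 0%. It was also the section whose highest Sox9 count in a Sox9-positive cell was lowest, at 9, with 0 cells of 10 or more counts. Without this section the portal-type share differed by 38.0 percentage points.

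Sox9-positive cells with Cldn7 lay 152 to 239 units from portal-type tiles by section, and those without it 163 to 263 units, so the ranges overlapped for most of their length. Within most sections cells with Cldn7 lay nearer, as at 48 h section 1 (173 against 213 units). They lay farther at 24 h section 1 (200 against 170 units), 72 h section 2, 14 days section 2 and 6 months. This difference was not tested. Sox9-positive cells also lay near each other. Within 150 units, 42.1 to 77.8% of Sox9-positive cells had another Sox9-positive cell, against 1.54 to 7.83% of the other cells having one. The share was 52.6 to 90.9% for cells with Cldn7 and 16.1 to 74.4% for those without. These shares are descriptions, since the cells of a section share its tissue and the number of such cells sets how often they can meet.

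Compared with 0 h, the expression of Sox9-positive cells moved in few genes. Of 81 genes tested at each time, 8 passed at 24 h (9.88%), 9 at 48 h (11.1%), 3 at 72 h (3.7%), 23 at 14 days (28.4%), 0 at 3 months (0%) and 6 at 6 months (7.41%). By direction these were 4 higher (4.94%) and 4 lower (4.94%) at 24 h, 7 (8.64%) and 2 (2.47%) at 48 h, 2 (2.47%) and 1 (1.23%) at 72 h, 12 (14.8%) and 11 (13.6%) at 14 days, and 2 (2.47%) and 4 (4.94%) at 6 months. At 3 months 1 gene was called by DESeq2. The times with 1 library (24 h, 3 months and 6 months) borrowed their spread from the others. The 14 days group, with the most calls, also had the most libraries. All its sections lay on slide 3, which held no 0 h section. Slide and time cannot be told apart in any gene at 14 days, and leaving out single libraries does not change that. Only 118 Sox9-positive cells were available at 0 h, so genes with few counts there limit every comparison.

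Cldn7 and Yap1 passed at 0 of 6 times. Cldn7 lay at 5287 and 7768 CPM at 24 h, 2564 and 4486 at 48 h, 2476 and 2870 at 72 h, 2920, 2900 and 2888 at 14 days, 3550 at 3 months and 2930 at 6 months, against 5569 and 1312 CPM at 0 h. The 2 sections of 0 h spanned most of that range. Yap1 lay at 5594 to 9904 CPM in the later sections, against 8859 and 8176 CPM at 0 h. Without 0 h section 1 Cldn7 passed at 2 times and without 0 h section 2 at 1 time, and Yap1 passed at 1 time without 48 h section 1.

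Gstm3, a glutathione S-transferase of the mu class, rose at 4 of the 6 times in Sox9-positive cells. It lay at 8647 and 4078 CPM at 24 h, 17734 and 24930 at 48 h, 7642 and 12361 at 72 h, and 8939, 6496 and 5860 at 14 days, against 338 and 0 CPM at 0 h. The 3 months and 6 months sections lay at 1553 and 723 CPM. The log2 fold change was 5.21 ± 0.64 at 24 h, 6.87 ± 0.59 at 48 h, 5.94 ± 0.59 at 72 h and 5.29 ± 0.57 at 14 days (edgeR adjusted p 0.000107, 1.52e-06, 9.08e-06 and 2.78e-05), and each passed whichever library was left out. The 0 h group held 4 counts in all, so the folds are loosely fixed. The other cells also held more Gstm3, at 43649 and 47323 CPM at 48 h, against 1584 and 1352 CPM at 0 h. Its relatives Gstm1 and Gstm2 are close in sequence, and how well the probes tell them apart was not tested.

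Rgn and Lect2, named for the size of their change, rose in Sox9-positive cells at 48 h and 14 days. Of the 25 hepatocyte genes 3 rose and 1 fell at 48 h, and 6 rose and 2 fell at 14 days, against 8.64% and 2.47%, and 14.8% and 13.6%, of all genes tested. Rgn lay at 1734 and 4884 CPM at 48 h and 3603, 3997 and 3429 CPM at 14 days, against 506 and 202 CPM at 0 h. Its log2 fold change was 3.08 ± 0.51 at 48 h (edgeR adjusted p = 0.000934) and 3.34 ± 0.48 at 14 days (adjusted p = 0.000321). Lect2 lay at 1228 and 2783 CPM at 48 h and 788, 926 and 773 CPM at 14 days, against 169 and 0 CPM at 0 h. With 2 counts at 0 h, the ratio of its pooled levels was 19.9 at 48 h (exact 95% interval 5.35 to 167, counting error only) and 9.20 at 14 days (2.53 to 76.2). Both genes passed at these times whichever library was left out; with a Sox9 count of at least 5 the calls at 48 h, and that of Lect2 at 14 days, were lost. With Sox9-positive cells weighted to the same spread of total counts in all sections Rgn stood at 1.80 at 48 h (adjusted p = 0.0436) and 1.64 at 14 days (0.0329), and Lect2 at 14 days missed the threshold (2.21, adjusted p = 0.113).

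**Figure D5:**
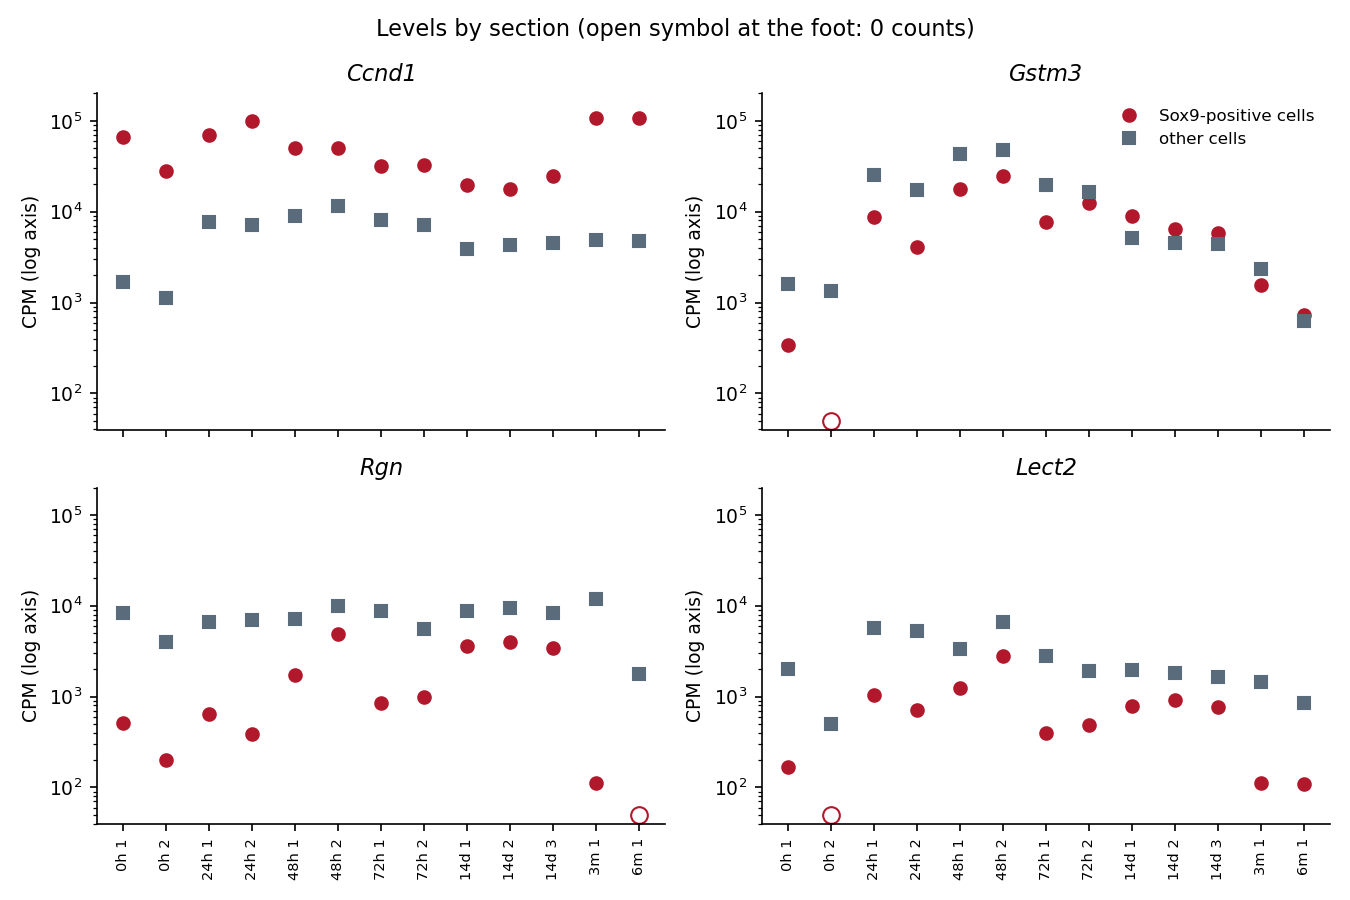
CPM on a log axis of Ccnd1, Gstm3, Rgn and Lect2 in Sox9-positive and in other cells of each section in order of time; open symbols at the foot mark 0 counts. Gstm3 of Sox9-positive cells lies at 4078 to 24930 CPM over 24 to 72 h, against 338 and 0 CPM at 0 h.

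Cyp8b1, the enzyme that sets the share of cholic acid among bile acids, fell at 48 h and 6 months. It lay at 361 and 398 CPM at 48 h and 362 CPM at 6 months, against 3544 and 2624 CPM at 0 h, with log2 fold changes of -2.99 ± 0.39 (edgeR adjusted p = 0.000111) and -2.81 ± 0.49 (adjusted p = 0.00253). The other cells also held less at 48 h (203 and 322 CPM, against 3400 and 1871 CPM at 0 h). Pon1 fell at 6 months to 868 CPM, against 7509 and 7268 CPM at 0 h (-2.82 ± 0.40, adjusted p = 0.000549). Wnt4 fell at 14 days, at 910, 759 and 920 CPM, against 2700 and 2524 CPM at 0 h (-1.61 ± 0.34, adjusted p = 0.00543). These calls held whichever library was left out, and those of Wnt4 and of both genes at 6 months were lost with a Sox9 count of at least 5, and that of Cyp8b1 at 6 months also with Adgre1 and Lrat at 0 (0.0884). Wnt4 stood at -0.70 (adjusted p = 0.244) with Sox9-positive cells weighted to the same total counts in all sections.

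The remaining named calls each rested on single sections. At 24 h Ccne1 (3.21) and Wnt9a (2.62) were higher and C8b (-1.46), Cyp27a1 (-1.74) and Pon1 (-1.29) lower, and Lect2 (3.29) and Cyp8b1 (-1.68) moved as at 48 h; without 0 h section 2 their adjusted p lay at 0.0797 to 0.184 in edgeR, and each was lost without 1 to 3 further sections. All 7 also missed the threshold with total-count scaling (0.11 to 0.141), with slide as a block (0.0662) and with Sox9-positive cells weighted by total counts (0.0501 to 0.208). Ccne1 was also higher at 48 h (2.91) and 72 h (3.49) and Lyz2 lower (-1.49 and -1.92), and without 0 h section 2 these p-values were 0.141 to 0.258. With cells weighted by total counts Ccne1 missed the threshold at 48 h (0.107) and 72 h (0.0749), and Lyz2 stood at -0.66 at 48 h with a Sox9 count of at least 5 (0.388). The ratio of pooled Ccne1 levels was 9.15 at 24 h (95% interval 2.94 to 46.0), 7.21 at 48 h (2.31 to 36.2) and 9.69 at 72 h (3.24 to 47.6), against 3 counts at 0 h. Tbx3, at 0 counts at 0 h and 14 counts at 48 h, was at least 2.24-fold higher, with 0 h set to a floor of 3 counts for both sections, and lost its call without each of 6 sections.

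At 14 days C6, a complement component (-1.34), Fzd3 (-2.10), Fzd9 (-2.77), Znrf3, a ligase that removes Frizzled receptors (-1.50), and Ccnd1 (-1.15) were lower, and all 5 missed the threshold without 0 h section 1 (edgeR adjusted p 0.0988 to 0.262). Without that section Ccnd1 stood at -0.60 and Fzd3 at -1.35, and Ccnd1 also missed the threshold without 14 days section 2 (0.0567). With Sox9-positive cells weighted by total counts Ccnd1 stood at -0.24 (adjusted p = 0.656), Fzd3 at -1.01 (0.322) and C6 at -2.13 (0.000514). Of the 11 Wnt receptor genes tested 4 fell and 0 rose at 14 days, with a median of -0.29, against 0.17 over all genes, of which 13.6% fell and 14.8% rose. Gstm1 (a pooled ratio of 10.9, 95% interval 3.02 to 90.6) and Axin2, a feedback gene of Wnt signalling (2.06), were higher, and both were lost without either 0 h section. At 6 months Ccnd1 (1.50) and Lyz2 (1.77) were higher and Oat (-2.64) lower, and Rgn, at 0 counts, was at least 3.39-fold lower against the floor. These 4 calls were each lost without 3 to 6 of the sections, one of the 0 h sections among them each time (adjusted p 0.0525 to 0.171 without it). They also missed the threshold with total-count scaling (0.0704 to 0.116) and with a Sox9 count of at least 5 (0.0732 to 0.37). With Sox9-positive cells weighted by total counts Lyz2 stood at 0.32 (adjusted p = 0.75), Ccnd1 at 0.77 (0.322) and Oat at -4.53 (0.0233).

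Whether Sox9-positive cells changed by another amount than the other cells of the same sections was tested as an interaction. Of 81 genes 3 passed at 24 h (3.7%), 15 at 48 h (18.5%), 10 at 72 h (12.3%), 27 at 14 days (33.3%), 0 at 3 months (0%; 1 by DESeq2) and 1 at 6 months (1.23%). The direction counts depended on scaling. At 14 days 18 (22.2%) were higher and 9 (11.1%) lower with TMM, and 5 higher and 24 lower with total-count scaling, which moved the median of all genes by -0.67. At 48 h 11 (13.6%) were higher and 4 (4.94%) lower with TMM, and 3 and 28 with total counts. At 72 h these were 8 (9.88%) and 2 (2.47%), and 2 and 19. At 24 h 1 (1.23%) was higher and 2 (2.47%) lower with TMM, and 1 and 6 with total counts.

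Ccnd1 was the clearest difference under both scalings. In Sox9-positive cells it lay at 69177 and 99495 CPM at 24 h, 49735 and 49690 at 48 h, 31483 and 32467 at 72 h, and 19442, 17889 and 24619 at 14 days, against 65643 and 27960 CPM at 0 h. In the other cells it lay at 7707 and 7199 CPM at 24 h, 8851 and 11573 at 48 h, 8109 and 7110 at 72 h, and 3855, 4280 and 4514 at 14 days, against 1697 and 1125 CPM at 0 h. The other cells held more than at 0 h in every later section. The Sox9-positive cells lay within the 0 h range at 48 h and 72 h and below it at 14 days. The change in Sox9-positive cells minus that in other cells was -1.87 ± 0.20 at 48 h, -2.12 ± 0.20 at 72 h and -2.01 ± 0.18 at 14 days on the log2 scale (edgeR adjusted p 0.000496, 0.000175 and 0.000128), and passed whichever library was left out. Cldn7 passed at 14 days (-1.97 ± 0.43, adjusted p = 0.00886), where other cells lay at 45.0, 68.4 and 52.7 CPM, against 14.2 and 5.52 CPM at 0 h, and stood at -1.30 with an adjusted p of 0.133 without 0 h section 1. It stood at -0.78 (adjusted p = 0.198) with the other cells weighted to the total counts of Sox9-positive cells, and at -1.25 (0.0801) with a Sox9 count of at least 5. At 3 and 6 months Ccnd1, at 107600 and 106620 CPM in Sox9-positive cells and 4910 and 4767 CPM in other cells, did not pass.

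Among hepatocyte genes 9 of 25 changed more upward in Sox9-positive than in other cells at 48 h. At 72 h 6 did and at 14 days 13, and 0 changed more downward at these times. Of all genes tested 13.6%, 9.88% and 22.2% changed more upward, and 4.94%, 2.47% and 11.1% more downward. The hepatocyte medians were 0.70, 0.71 and 0.66, against 0.20, 0.31 and 0.36 over all genes. Under total-count scaling the hepatocyte counts were 2 higher and 6 lower, 2 and 0, and 4 and 3. Those of all 81 genes were 3 and 28, 2 and 19, and 5 and 24. Rgn (3.41 ± 0.57 at 48 h and 3.52 ± 0.52 at 14 days) and Lect2 (3.35 ± 0.69 and 3.45 ± 0.65) kept their calls under both scalings and whichever library was left out. With a Sox9 count of at least 5 Lect2 missed the threshold at both times (adjusted p 0.199 and 0.133), and with a count of at least 2 it stood at 1.34 at 48 h (0.0945). G6pc, the last enzyme of glucose release, kept its calls under both scalings and whichever library was left out at 72 h (2.20 ± 0.36) and 14 days (1.63 ± 0.32), and C6 at 72 h (1.80 ± 0.25). For G6pc the 0 h sections themselves lay far apart, at 7425 and 63995 CPM in Sox9-positive cells and 10869 and 67688 CPM in other cells. With other cells weighted to the total counts of Sox9-positive cells 9 hepatocyte genes were higher and 0 lower by the same test at 48 h, 10 and 1 at 72 h, and 13 and 0 at 14 days. Counts over all genes under this weighting are not given here, so no pattern particular to hepatocyte genes is read from these. Pon1 was called as falling more at 6 months (-1.78 ± 0.29, adjusted p = 0.0129), and stood at -0.21 (adjusted p = 0.842) with a Sox9 count of at least 5 and at -1.47 (0.0551) with a filter of 10 counts in every library.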

How the data were processed

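Per the labels' protocols, frozen regrown lobes were sectioned and the company that sells the assay read them. The authors deposited whole-number transcript counts per gene and cell for 13 sections and, for 12, transcript positions. How transcripts were decoded, how cells were outlined and the length of a coordinate unit are not given in the sources used here. Genes with no line in a table counted as 0. Cell positions were read from cell names, y before x: the Spearman correlation of a cell's Glul count with Glul transcripts within 60 units was 0.904 to 0.934 in that order and 0.00978 to 0.110 in the other.

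The members, the gene lists and the tests were chosen with earlier results of these data known. Counts were summed per library over Sox9-positive and over other cells and fitted by the robust quasi-likelihood F test of edgeR 4.0.16 (R 4.3.3) after TMM scaling, with Benjamini-Hochberg adjustment over 81 of 97 genes and a threshold of 0.05: with library as a block between cell classes, by time within Sox9-positive cells, and as an interaction of class and time. SEs are the log2 fold change over the root of F. Named genes were the 10 largest rises and falls between classes that passed with 1 sign in all libraries but at most 1, the 5 largest each way at each time, and Cldn7, Yap1, Ccnd1, Pecam1, Ptprc, Lyz2 and the central and portal hepatocyte genes as counts with examples. The fits were tested on simulated data with known changes. They recovered 100% of the changed genes between classes, 78.9% against 0 h and 58.8% for the interaction, with 0% false calls. In the simulation both cell classes had the same profile, and every gene had the same spread. Its changes were large and of the same size, with about as many rises as falls, in 16 of 74 genes between classes. It therefore does not check the choice of scaling where most genes differ, or the recovery of smaller folds. For the fits by time only 14 days was simulated, so the times with 1 library were not checked, and few calls there do not show a lack of change. Alternatives were total-count scaling, other filters, DESeq2 1.42.0, other Sox9 thresholds, cells with Adgre1 and Lrat at 0 or without other markers, depth weighting, 24 h sections apart, number and slide as blocks, other tiles, and leaving out each section.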

Additional observations from a re-analysis of the deposited data

Results flagged for a closer look

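Changes against 0 h that differed between Sox9-positive and other cells by the interaction test in edgeR are given here as the log2 change in Sox9-positive cells minus that in other cells. At 24 h they were Ccnd1 (-1.16), Oat (-2.20) and Wnt9a (3.25), and each lost its call without 5 to 8 of the sections. At 48 h Ccnd1 (-1.87), Gstm3 (2.72), Lect2 (3.35) and Rgn (3.41) passed whichever section was left out. Cyp1a2 (2.74), Fzd9 (-3.78), Lrp5 (-0.81) and Znrf3 (-0.85) did not, and without 0 h section 1 Lrp5 stood at -0.38, Znrf3 at -0.53 and Fzd9 at -3.19 with an adjusted p of 0.113. The fitted 12.2 of Tbx3 is no bound, since it had 0 counts in Sox9-positive cells at 0 h.

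At 72 h C6 (1.80), Ccnd1 (-2.12), G6pc (2.20) and Gstm3 (2.93) passed whichever section was left out. Cps1 (0.91), Pck1 (1.05) and Fzd9 (-3.43) did not. Without 72 h section 1 Cps1 stood at 0.62 (adjusted p = 0.151) and Pck1 at 0.65 (adjusted p = 0.201), and without 0 h section 1 Fzd9 had an adjusted p of 0.0984. At 14 days Ccnd1 (-2.01), G6pc (1.63), Gstm3 (4.28), Lect2 (3.45) and Rgn (3.52) passed whichever section was left out. Cldn7 (-1.97), Fzd3 (-3.03) and Fzd9 (-2.68) were lost without 0 h section 1 (adjusted p 0.133 to 0.171), Cyp1a2 (2.53) without 14 days section 1 (0.0514) and Pecam1 (-1.99) without 0 h section 2, where it stood at -1.21 (0.054). At 6 months Pon1 (-1.78) passed whichever section was left out, and stood at -0.21 (adjusted p = 0.842) with a Sox9 count of at least 5 and at -1.47 (0.0551) with a filter of 10 counts in every library. Gstm3 at 48 h and 72 h and Cyp1a2 at both times were not called under total-count scaling, nor with the other cells weighted to the total counts of Sox9-positive cells (adjusted p 0.0601 to 0.0744). With that weighting Cldn7 stood at -0.78 (0.198), Pecam1 at -1.05 (0.198) and Fzd3 at -1.92 (0.0767) at 14 days. With a Sox9 count of at least 5 Lect2 missed the threshold at 48 h and 14 days (0.199 and 0.133) and Gstm3 stood at 1.61 (0.369) at 48 h and 2.02 (0.286) at 72 h.

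The rule left out cells with both Sox9 and Lrat at 3 or more counts, and their part of all cells with Sox9 at 3 or more went above that at 0 h in 9 of 11 later sections. It was 3.16% and 1.37% in the 24 h sections, 7.69% and 10.9% at 48 h, 29.7% and 14.1% at 72 h, 7.08%, 10.8% and 5.31% at 14 days, 57.0% at 3 months (65 of 114 cells) and 22.2% at 6 months, against 4.35% and 0% at 0 h. This difference was not tested.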

How the results depend on the processing

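Sox9-positive cells differed from other cells in the same direction for the 20 genes named by rank and Yap1 under all alternatives that tested them. A filter of 10 counts in every library left 13 of these 21 untested, and Tbx3 was also untested with Sox9 of at least 5, without cells holding Pecam1 or Ptprc, and without 14 days section 1 or 2. Distances to portal-type and central-type tiles kept their sign and their side of the threshold under all tile settings, with tiles from all transcripts of 12 sections (-314 units, chosen after seeing the data) and with each section left out in turn (-321 to -305 units, 34.7 to 38.0 percentage points and 614 to 689 units). The share of Sox9-positive cells was above 0 h by 0.937 to 1.17 points with each section left out in turn. Without 0 h section 1 or 2 it was above by 1.12 or 1.00 points, with 1 library left at 0 h, too few for the permutation test to pass. It was above by 0.495 with Sox9 of at least 5, by 0.628 with Adgre1 and Lrat at 0 and by 0.397 in thinned cells. With the section number as a block it was above by 1.13 (exact permutation p = 0.125, the smallest that the 16 arrangements of this test can give).

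Total-count scaling gave 42 genes higher and 15 lower between classes, 1, 4 and 2 calls against 0 h at 24 h, 48 h and 6 months, and 7, 31 and 21 interaction calls at 24, 48 and 72 h. It turned Arg1 (0.47), Ass1 (0.35), Lyz2 (0.30), Pck1 (0.40), Pecam1 (0.17) and Ptprc (0.49). Sox9 of at least 2 turned Arg1 (0.099), Ass1 (0.0050) and Pck1 (0.098), Sox9 of at least 5 turned Gls2 (-0.37), Hsd17b13 (-0.40), Lyz2 (0.16) and Ptprc (0.31), and Gls2 stood at -0.0024 with no filter and -0.031 with DESeq2. Ptprc stood at 0.11 without cells holding Pecam1 or Ptprc, and Arg1 at 0.0065 with other cells weighted. With each section left out in turn Gls2 lay at -0.067 to 0.094, Hsd17b13 at -0.014 to 0.14 and Ptprc at -0.35 to 0.012. A filter of 10 counts in every library, which tests fewer genes, left 15 higher and 14 lower, 3, 2 and 1 calls at 24, 48 and 72 h, and 0, 4, 15 and 0 interaction calls at 24 h, 72 h, 14 days and 6 months.

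For calls against 0 h, DESeq2 gave 5 at 24 h and 1 at 3 months, Sox9 of at least 5 gave 4, 3 and 0 at 24 h, 48 h and 6 months, Sox9 of at least 2 gave 16, 8 and 12 at 48 h, 72 h and 6 months, and Adgre1 and Lrat at 0 gave 4, 3 and 1 at 24 h, 3 months and 6 months. Depth weighting gave 2 at 24 h, 1 at 72 h and 16 at 14 days, where Ccnd1, Fzd3, Lect2, Wnt4 and Axin2 were among the calls lost, slide as a block 1 at 24 h (14 days could not be fitted), and cells without Pecam1 or Ptprc 7 at 72 h and 1 at 3 months. For the interaction, DESeq2 gave 7, 1 and 5 at 24 h, 3 months and 6 months, Sox9 of at least 5 gave 1, 5, 3 and 10 at 24 h, 48 h, 72 h and 14 days, Sox9 of at least 2 gave 21 at 24 h and 2 at 6 months, Adgre1 and Lrat at 0 gave 0, 1 and 2 at 24 h, 3 months and 6 months, no filter gave 5 at 72 h and 4 at 6 months, and 24 h sections apart gave 5, 17 and 4 at 24 h, 14 days and 6 months. Chosen after seeing the data, slide by class as a block gave 5 at 24 h and 3 at 6 months, and weighted other cells 5 at 24 h and 1 at 3 months.

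With each section left out in turn, 18 to 25 genes were higher and 26 to 37 lower between classes. Calls against 0 h were then 1 to 14 at 24 h, 4 to 19 at 48 h, 1 to 4 at 72 h, 9 to 23 at 14 days, 0 to 1 at 3 months and 2 to 11 at 6 months, and interaction calls 0 to 6, 6 to 21, 4 to 14, 16 to 30, 0 to 4 and 1 to 5. The section number as a block gave 5 calls at 48 h and changed no other count by over 1.5 times. Same-numbered sections deviated with correlations of -0.302 to 0.361. Sections 1 and 2 gave the same value wherever both times had 2 sections. These few values cannot settle whether the numbers pair sections. The cause of these shifts was not tested. Only 49 to 417 Sox9-positive cells a section, and 4 counts or fewer of Gstm3, Lect2 and Ccne1 over both 0 h sections, limit all changes in time.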
